A study of Mus musculus with 6 samples.

Results

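The Hedgehog pathway was followed in mouse skin through 8 genes taken by name from the 17564 genes of the deposited table: the ligand Shh, the receptors and antagonist Ptch1, Smo and Hhip, and the Gli transcription factors Gli1, Gli2 and Gli3 with their inhibitor Sufu. All 8 had a row, and all 8 passed the filter on low reads. The genes were chosen by name with their log2 fold changes in this same comparison already known, so their differences between the groups are given as descriptions, without a test.

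Polyadenylated RNA from back skin of wild-type C57BL/6 mice, 8 weeks old, was sequenced in bulk from whole tissue, in 2 groups of 3 samples. The SspA/HDM samples came from shaved and depilated skin to which 3 µg of SspA, a secreted protease of Staphylococcus aureus, and 10 µg of HDM, an extract of house dust mites, were applied. The application was repeated 3 days later, and the skin was taken 7 days after the first one. The untreated samples were shaved and depilated only, so depilation is shared by both groups, and the labels give no day of collection for them. Treatment and time since depilation therefore cannot be told apart from the labels. The labels do not tie the 3 replicates of each condition to different mice. The p-values set the difference between the groups against the spread among replicates, and that spread may be technical in part. The libraries held between 4928245 reads (untreated replicate 2) and 7545567 reads (SspA/HDM replicate 3).

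Sonic hedgehog is a secreted, lipid-modified protein made by epithelial cells of the hair germ and later the hair matrix. When it binds Patched receptors, the membrane protein Smoothened is released and acts in the primary cilium, and Gli factors turn on target genes that include Gli1, Ptch1 and Hhip themselves. In mouse skin the pathway is known for its part in the start of follicle growth, and plucking or depilation is known to bring resting follicles into growth.

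Promoter sequences from RefSeq (GRCm38.p6, the same coordinates as mm10) were at hand for 6 of the 8 genes, all but Shh and Gli1. Those of Ptch1 and Gli2 are shown because these were the genes of the pathway whose profiles lay nearest to that of Gli1. Each run is the 250 bases before the start of the transcript in the deposited table, 5′ to 3′ on the gene's strand, with the GC box GGGCGG in capitals.
Ptch1 (chr13:63565736-63565985, minus strand): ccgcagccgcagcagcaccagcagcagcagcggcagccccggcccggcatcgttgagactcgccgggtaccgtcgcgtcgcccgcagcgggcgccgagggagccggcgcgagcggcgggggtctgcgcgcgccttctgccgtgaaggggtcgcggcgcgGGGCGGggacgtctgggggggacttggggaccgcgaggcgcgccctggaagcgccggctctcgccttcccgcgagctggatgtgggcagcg
Gli2 (chr1:119053620-119053869, minus strand): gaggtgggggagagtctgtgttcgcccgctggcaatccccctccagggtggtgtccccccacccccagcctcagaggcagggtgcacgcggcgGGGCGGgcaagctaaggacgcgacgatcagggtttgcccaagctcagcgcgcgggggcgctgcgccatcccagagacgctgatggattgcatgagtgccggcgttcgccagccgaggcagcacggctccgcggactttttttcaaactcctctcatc
The Gli consensus GACCACCCA, searched on both strands, was in none of the 6 windows of 250 bases and in 0.225% of all 32851 promoters. Its shorter core CCACCCA, which lies within it, was in none of the 6 and in 8.11% of all promoters. The GC box GGGCGG or its reverse complement was in 5 of the 6, all but Smo, and in 32.7% of all promoters. The Ptch1 window was 78.4% G or C, the highest of the 6, the Gli2 window was 67.2%, and the lowest was Sufu with 54.0%. That share was not computed for all promoters, so nothing is read from the GC box count.

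The ligand gene Shh (mm10 chromosome 5, 28456840 to 28467101, minus strand) was barely present in untreated skin and plain in every treated library. It had 88.2, 50.1 and 173 scaled reads in SspA/HDM replicates 1, 2 and 3, against 5.49, 5.15 and 5.68 in untreated replicates 1, 2 and 3. Scaled reads are reads brought by the authors to the same total in each library. The groups did not overlap, and the treated libraries differed among themselves, with replicate 3 highest and replicate 2 lowest. Shh averaged 104 ± 63.0 scaled reads in SspA/HDM skin and 5.44 ± 0.269 in untreated skin (SD, n = 3 each), a log2 fold change of 3.85 ± 0.42 (SE) on the log2(scaled reads + 1) scale. The untreated value rests on 14 reads in all, against 330 reads in the SspA/HDM group, and the ratio of these sums per library size was 20.2, with an exact 95% interval of 11.9 to 37.4 that covers counting error only. In bulk skin, more cells of a type and more RNA per cell cannot be told apart.

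Ptch1 (chromosome 13, 63508328 to 63565735, minus strand) encodes the receptor that holds Smoothened off and is itself a target of the pathway. It had 916, 943 and 1417 scaled reads in SspA/HDM replicates 1, 2 and 3, against 694, 642 and 760 in untreated replicates 1, 2 and 3. All 3 treated libraries lay above all 3 untreated ones, with replicate 3 well above the other two. The log2 fold change of Ptch1 was 0.62 ± 0.16 (SE, n = 3 each).

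Smo (chromosome 6, 29735497 to 29761366, plus strand), the gene of the signal-passing membrane protein, was at nearly one level throughout. It had 730, 711 and 731 scaled reads in SspA/HDM replicates 1 to 3, against 691, 621 and 751 in untreated replicates 1 to 3. The groups overlapped, and the log2 fold change of 0.08 ± 0.09 (SE) was smaller than its error.

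Hhip (chromosome 8, 79965851 to 80058008, minus strand) encodes a membrane protein that binds Hedgehog ligands and keeps them from Patched. It had 62.2, 82.8 and 233 scaled reads in SspA/HDM replicates 1, 2 and 3, against 84.6, 93.9 and 69.3 in untreated replicates 1, 2 and 3. Only SspA/HDM replicate 3 stood above the untreated libraries, and SspA/HDM replicate 1 was the lowest of the 6. The log2 fold change of Hhip was 0.37 ± 0.42 (SE) over the 6 libraries and -0.19 without SspA/HDM replicate 3, so 1 library sets its sign.

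Gli1 (chromosome 10, 127329882 to 127341579, minus strand), an activator that is itself switched on by the pathway, had the largest log2 fold change of the 8 genes after Shh. It had 499.8, 562 and 918 scaled reads in SspA/HDM replicates 1, 2 and 3, against 319, 342 and 397 in untreated replicates 1, 2 and 3. The groups did not overlap, and replicate 3 was again the highest treated library, while replicate 1 was the lowest, unlike for Shh. Gli1 averaged 660 ± 225 scaled reads in SspA/HDM skin and 352 ± 39.9 in untreated skin (SD, n = 3 each), a log2 fold change of 0.86 ± 0.20 (SE).

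Gli2 (chromosome 1, 118834061 to 119053619, minus strand), the main activator that responds to the ligand, had 312, 416 and 542 scaled reads in SspA/HDM replicates 1, 2 and 3, against 264, 221 and 334 in untreated replicates 1, 2 and 3. SspA/HDM replicate 1 lay below untreated replicate 3, so the groups overlapped, and the log2 fold change was 0.62 ± 0.21 (SE). Gli3 (chromosome 13, 15463723 to 15730025, plus strand), which without ligand is cut to a repressor, had 342, 366 and 434 scaled reads in SspA/HDM replicates 1, 2 and 3, against 276, 253 and 372 in untreated replicates 1, 2 and 3. Its groups overlapped as well, with a log2 fold change of 0.35 ± 0.15 (SE).

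Sufu (chromosome 19, 46396896 to 46488804, plus strand) encodes the protein that holds Gli factors in the cytoplasm. It had 535, 537 and 535 scaled reads in SspA/HDM replicates 1, 2 and 3, against 394, 403 and 418 in untreated replicates 1, 2 and 3. The treated libraries were almost equal and all above the untreated ones, unlike Shh, Ptch1 and Gli1, in which SspA/HDM replicate 3 stood out. The log2 fold change of Sufu was 0.40 ± 0.08 (SE).

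**Figure D1:**
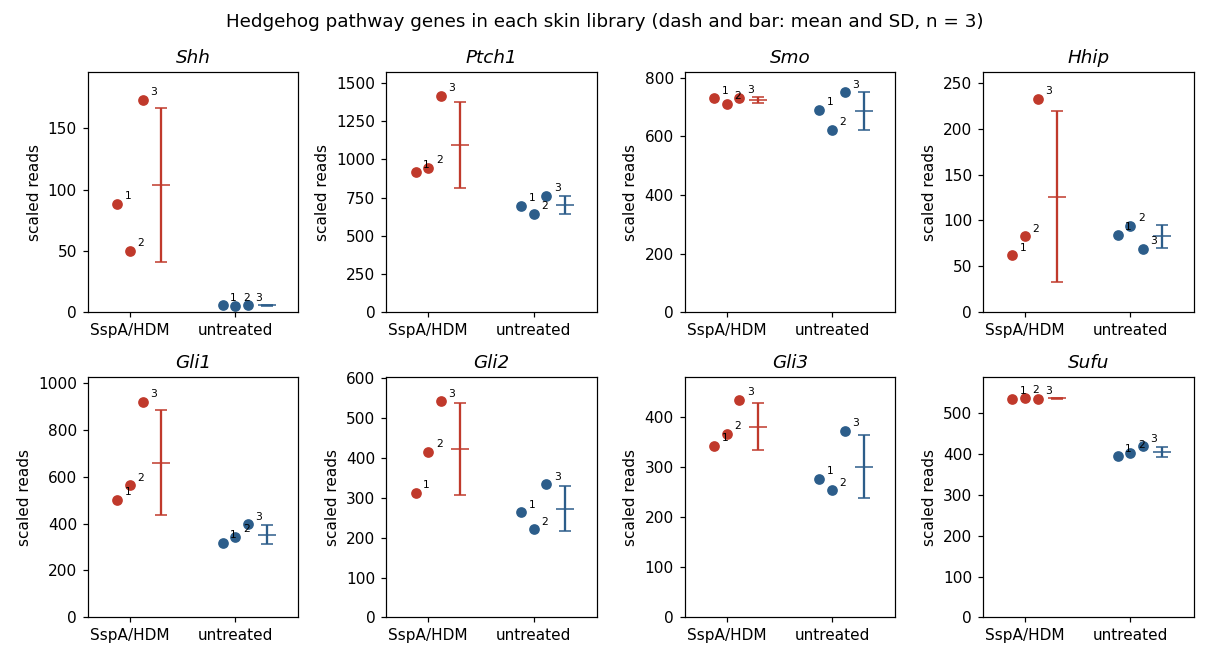
Scaled reads (y axis, from 0) of the 8 Hedgehog pathway genes in each library, with SspA/HDM samples in red and untreated samples in blue, points numbered by replicate, and a dash and bar for mean and SD (n = 3). The groups are apart for Shh, Ptch1, Gli1 and Sufu, and SspA/HDM replicate 3 is the highest library for Shh, Ptch1, Hhip, Gli1, Gli2 and Gli3.

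For 4 of the 8 genes, namely Shh, Ptch1, Gli1 and Sufu, every treated library was above every untreated library, and for none was the reverse seen. Across all 15534 genes tested, the treated libraries were all above the untreated ones for 21.7% and all below for 15.6%, together 37.3%. Since the genes were chosen with this comparison known, nothing is read from that count. All 8 log2 fold changes were positive, with a median of 0.51, beside a median of 0.03 over all genes tested. SspA/HDM replicate 3, the highest library for 6 of the 8 genes, was also the deepest. In the 4 libraries of like depth (without SspA/HDM replicate 3 and untreated replicate 2) the log2 fold changes were 3.36 for Shh, 0.57 for Gli1, 0.40 for Sufu, 0.35 for Ptch1, 0.28 for Gli2, 0.14 for Gli3, 0.00 for Smo and -0.09 for Hhip. The part of depth in the values of replicate 3 was not tested, and reads per base of transcript did not exceed 0.299 for any of the 8 genes in any library.

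Levels of different genes were compared per length, as RPKM, which divides the recovered reads by transcript length and by library size. In SspA/HDM skin the order of mean levels was Smo (28.8 RPKM), Gli1 (28.5), Ptch1 (23.7), Sufu (18.7), Gli2 (9.98), Gli3 (7.13), Shh (6.15) and Hhip (2.19). In untreated skin it was Smo (27.4 RPKM), Gli1 (15.2), Ptch1 (15.1), Sufu (14.2), Gli2 (6.43), Gli3 (5.63), Hhip (1.44) and Shh (0.322). Shh was thus last in untreated skin and above Hhip in the treated mean. Of neighbours in the treated order, the ranges over libraries were apart for Ptch1 and Sufu and for Sufu and Gli2, and overlapped for all others. In untreated skin the ranges of Smo and Gli1, of Sufu and Gli2, of Gli3 and Hhip and of Hhip and Shh were apart, and those of Gli1, Ptch1 and Sufu overlapped from one to the next, as did those of Gli2 and Gli3.

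Within the Gli family, Gli1 held the largest share of the summed RPKM in every library. Its share was 61.1%, 59.3% and 65.5% in SspA/HDM replicates 1, 2 and 3, against 54.8%, 59.8% and 53.6% in untreated replicates 1, 2 and 3, so the groups overlapped. Gli3 held 18.1%, 16.8% and 13.4% in SspA/HDM replicates 1, 2 and 3, against 20.6%, 19.2% and 21.8% in untreated replicates 1, 2 and 3, with every treated share below every untreated one. The ratio of Ptch1 to Smo in RPKM was 0.683, 0.722 and 1.06 in SspA/HDM replicates 1, 2 and 3, against 0.547, 0.562 and 0.551 in untreated replicates 1, 2 and 3. Receptor message was thus below Smo message in all libraries but SspA/HDM replicate 3. These shares and ratios come from the same values as the levels above and add no separate evidence.

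Of 48 symbols of other pathway genes, listed by role, 46 had a row and 42 were tested. Adrbk1 is an older name of Grk2, which was tested, and Lrp2 was not analysed here. The ligand Ihh and the targets Foxe1, Foxf1 and Foxf2 did not pass the filter on low reads. Of the 42 tested genes, 8 were higher and 2 lower in SspA/HDM skin (limma, adjusted p under 0.05 over all genes). That is 19.0% and 4.76%, beside 9.26% higher and 7.23% lower, together 16.5%, of all 15534 genes tested. The median log2 fold change of the 42 genes was -0.02, and 20 values were positive and 22 negative. The 8 fell to 5 without SspA/HDM replicate 2 or 3 and to 4 without untreated replicate 1 or 2. The 2 lower genes fell to 1 without SspA/HDM replicate 2 or untreated replicate 1 or 3. With edgeR, DESeq2, limma-voom or TMM scaling on all 6 libraries, 6 of the 42 were higher and 2 lower. Over all 15534 genes, these settings gave 1061 (limma-voom) to 1278 (TMM scaling) higher and 1127 (limma-voom) to 1336 (DESeq2) lower.

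Of 7 tested genes of ligand making and release, 2 rose. Disp2, a relative of the ligand exporter gene Disp1, had 84.8, 82.8 and 33.6 scaled reads in SspA/HDM replicates 1, 2 and 3, against 5.49, 1.29 and 6.82 in untreated replicates 1, 2 and 3 (log2 fold change 3.69 ± 0.54 SE, limma adjusted p = 0.0048). In contrast to Shh, the lowest treated library of Disp2 was replicate 3. With 12 reads in all in untreated skin, Disp2 passed the filter through the SspA/HDM libraries only. Scube3, whose family carries Hedgehog ligands away from the cell surface, had 182, 161 and 444 scaled reads in SspA/HDM replicates 1, 2 and 3, against 78.0, 60.5 and 63.6 in untreated replicates 1, 2 and 3 (1.80 ± 0.34 SE, limma adjusted p = 0.0111). Its treated libraries stood in the order of Shh, with replicate 3 highest and replicate 2 lowest. How many of all genes stand in that order was not counted, and Ptch1, Hhip, Gli1, Gli2 and Gli3 were lowest in replicate 1. Disp1 itself (-0.24 ± 0.15 SE, adjusted p = 0.316) and Scube2 (-0.61 ± 0.43 SE, adjusted p = 0.377) did not pass. Dhh, the ligand gene of Schwann cells, did not pass either (0.08 ± 0.17 SE, adjusted p = 0.809).

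The co-receptor genes Gas1 (0.07 ± 0.09 SE, adjusted p = 0.645), Boc (-0.24 ± 0.14 SE, adjusted p = 0.275) and Cdon (-0.03 ± 0.11 SE, adjusted p = 0.870) did not pass.

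In the relay from Smoothened through the cilium, 2 of 12 tested genes rose. Arrb2, a beta-arrestin, averaged 394 ± 43.9 scaled reads in SspA/HDM skin and 271 ± 31.6 in untreated skin (SD, n = 3 each; log2 fold change 0.54, limma adjusted p = 0.0214). Its adjusted p was 0.0682 without SspA/HDM replicate 1, 0.0785 without SspA/HDM replicate 2, 0.0649 without untreated replicate 1 and 0.0621 without untreated replicate 2. Beta-arrestins also serve other receptors, and 9 of 9 tested neutrophil marker genes rose in the same libraries (the part of such cells in the Arrb2 value was not tested). Of those markers, Retnlg, Trem1, Ngp and Mmp8 had 14, 5, 2 and 14 reads in all in untreated skin. They passed the filter through the SspA/HDM libraries only and could hardly come out lower. Kif3a, a motor subunit needed to build cilia, averaged 516 ± 39.9 scaled reads in SspA/HDM skin and 375 ± 50.5 in untreated skin (SD, n = 3 each; log2 fold change 0.47, limma adjusted p = 0.0256). Its adjusted p was 0.0734 without SspA/HDM replicate 2, 0.0504 without SspA/HDM replicate 3, 0.0886 without untreated replicate 1, 0.0779 without untreated replicate 2 and 0.0825 in the 4 libraries of like depth. The kinase gene Grk2 (-0.05, adjusted p = 0.665), Arrb1 (-0.29, adjusted p = 0.147) and the cilium gene Arl13b (-0.05, adjusted p = 0.856) did not pass.

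Among genes that control Gli proteins, 2 of 13 rose and 1 fell, all by small margins of the test. Stk36, a kinase gene related to the fly gene fused, had 40.7, 52.3 and 62.2 scaled reads in SspA/HDM replicates 1, 2 and 3, against 22.0, 36.02 and 19.3 in untreated replicates 1, 2 and 3 (log2 fold change 1.01, limma adjusted p = 0.0496). Its adjusted p passed without untreated replicate 2 (0.0330) and was 0.0664 to 0.141 without any other library, and it was 0.0569 with edgeR and 0.0865 with DESeq2. Prkacb, a catalytic subunit of protein kinase A, which marks Gli proteins for cutting, rose by 0.30 on the log2 scale (limma adjusted p = 0.0453, 0.0465 without SspA/HDM replicate 1 and 0.0537 to 0.167 without any other library). Its adjusted p was 0.0691 with edgeR and 0.101 with DESeq2. Cul3, a scaffold of the ligase that removes Gli proteins, fell by 0.27 on the log2 scale (limma adjusted p = 0.0303). Cul3 did not pass without SspA/HDM replicate 2 (0.118) or untreated replicate 1 (0.0682), 2 (0.0845) or 3 (0.0751), or in the 4 libraries of like depth (0.0612). Csnk1a1, Spop and Prkar1a, the genes of this list with the highest RPKM, had log2 fold changes of -0.01, -0.11 and 0.01 and did not pass.

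Among genes known as targets of the pathway in some tissue, 1 of 6 tested rose and 1 fell. Mycn, a transcription factor gene of dividing precursor cells, had 166, 133 and 248 scaled reads in SspA/HDM replicates 1, 2 and 3, against 39.6, 52.8 and 52.3 in untreated replicates 1, 2 and 3 (log2 fold change 1.86 ± 0.25 SE, limma adjusted p = 0.0034). Its treated libraries, too, stood in the order of Shh, unlike those of the targets Gli1 and Ptch1. Nog, whose product blocks BMP signals, had 29.4, 26.1 and 27.7 scaled reads in SspA/HDM replicates 1, 2 and 3, against 83.5, 66.9 and 69.3 in untreated replicates 1, 2 and 3 (-1.36 ± 0.21 SE, limma adjusted p = 0.0052). Foxe1, a follicle gene downstream of Gli2, had 27.1, 4.36 and 69.7 scaled reads in SspA/HDM replicates 1, 2 and 3, against 2.2, 3.86 and 5.68 in untreated replicates 1, 2 and 3. Replicate 2 of the treated group was within the untreated range, and Foxe1 was not tested. The cyclin genes Ccnd1 (0.25, adjusted p = 0.0854) and Ccnd2 (-0.07, adjusted p = 0.671) and Sox9 (-0.14, adjusted p = 0.432) did not pass.

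**Figure D2:**
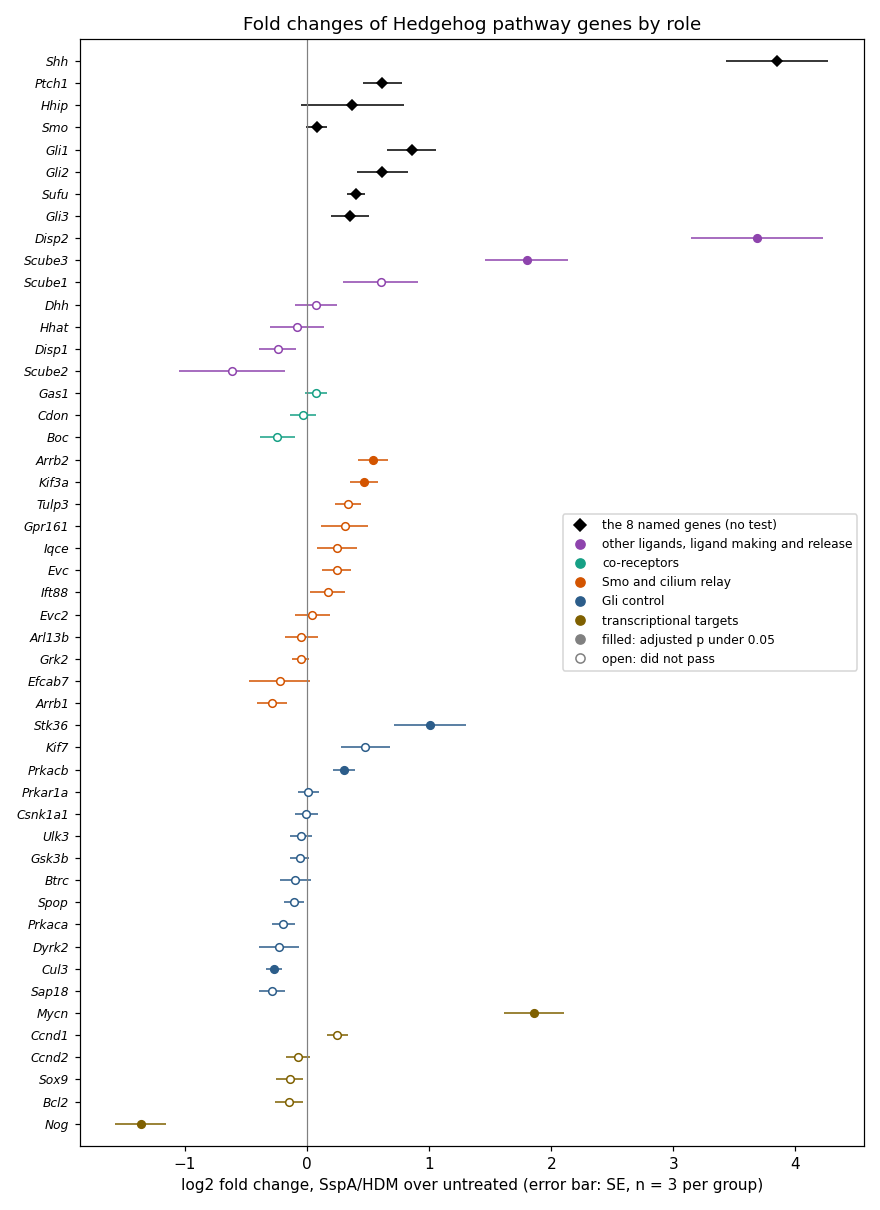
Log2 fold changes of SspA/HDM over untreated skin (x axis; error bar SE, n = 3 per group) for the 8 named genes (black diamonds, no test) and other tested pathway genes, coloured by role, with filled circles for adjusted p under 0.05. Shh (3.85), Disp2 (3.69), Mycn (1.86) and Scube3 (1.80) lie farthest to the right, and Nog (-1.36) farthest to the left.

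The genes with the most similar profile were sought by the root-mean-square difference of log2(scaled reads + 1), each gene's mean removed, over the 6 libraries and 14632 other genes. Nearest to Shh were Padi3 (0.33), an enzyme gene of the inner root sheath and hair shaft, Krt71 (0.48), an inner root sheath keratin, Fbp1 (0.55), an enzyme of glucose synthesis, Cps1 (0.55), an enzyme of ammonia removal, and Adgrf1 (0.56), an adhesion receptor. Padi3 had 62.2, 24.0 and 155 scaled reads in SspA/HDM replicates 1, 2 and 3, against 3.30, 3.86 and 5.68 in untreated replicates 1, 2 and 3, the same order of treated libraries as Shh. Nearest to Gli1 were Psd (0.09), Foxd2os (0.09), Bnc2 (0.10), a zinc finger gene, Mcoln3 (0.10), an ion channel gene, and Nckap5 (0.11). Of the pathway genes, Ptch1 ranked 15 and Gli2 ranked 48 in nearness to Gli1, while Shh itself ranked 14534, since its difference between the groups was far larger. Gli1 ranked 558 in nearness to Shh. These differences describe 6 libraries of 2 groups and carry no test.

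**Figure D3:**
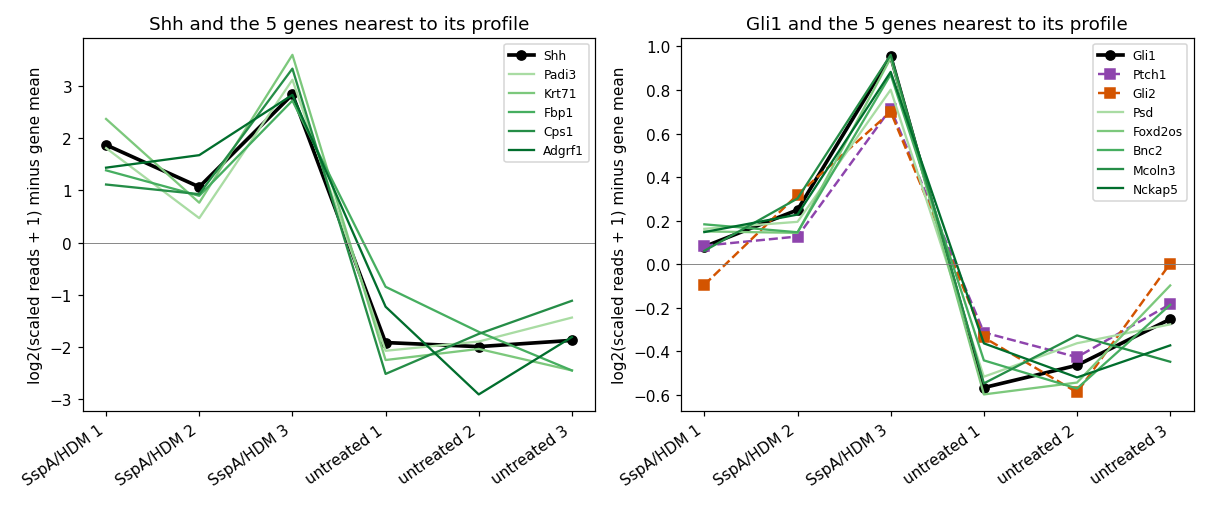
Log2(scaled reads + 1) minus each gene's mean (y axis) in the 6 libraries (x axis) for Shh (left) and Gli1 (right) in black with the 5 nearest genes in green, and Ptch1 and Gli2 dashed, lines joining the values of 1 gene. Shh and its nearest genes are low in all untreated libraries, and Gli1 and its nearest genes peak in SspA/HDM replicate 3.

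Markers of the follicle and of other skin cells were read in the same libraries. All 8 tested inner root sheath and shaft genes were higher in SspA/HDM skin by the limma test, while limma-voom called 2 and the other alternatives 7 to 9. Of these, Krt25, Krt27, Krt73, Padi3 and Krt35 had 3, 14, 9, 11 and 13 reads in the untreated libraries together. They passed the filter through the SspA/HDM libraries only, so they could hardly come out lower, and nothing is read from the count. Of the list's 14 symbols, Krt34 had no row, and Krt72, Krt31, Krt33a, Krt85 and Krt86 did not pass the filter. The hair keratin genes Krt31, Krt33a, Krt85 and Krt86 had only 10, 21, 37 and 26 reads in the SspA/HDM libraries together. The mean of the 8 tested genes on the log2 scale lay 4.50, 2.78 and 5.68 above the untreated mean in SspA/HDM replicates 1, 2 and 3, against 3.79, 2.99 and 4.76 for Shh. Replicate 3 was highest and replicate 2 lowest in both. Krt71 (log2 fold change 4.48), Krt25 (6.90) and Tchh (2.61), inner root sheath genes, were the list's 3 genes with the highest RPKM, and Krt25 had 3 reads in all untreated libraries together, so the size of its change is uncertain. Of 10 matrix and precursor factor genes, 1 rose, Cux1 (log2 fold change 0.68, limma adjusted p = 0.0361), while Ovol1 (0.02) and Dlx3 (0.49) did not pass. The count was 5 without SspA/HDM replicate 2 and 0 without SspA/HDM replicate 1 or any 1 of the untreated replicates, and it was 4 with DESeq2 and 0 with limma-voom. The mean of these 10 genes lay 0.66, 0.19 and 1.26 above the untreated mean in SspA/HDM replicates 1, 2 and 3. All 10 log2 fold changes were positive, with a median of 0.67, beside 0.03 over all genes tested. Of 10 dermal papilla genes, Prom1 rose and Alpl and Bmp4 fell, and the highest by RPKM, Crabp1 (0.13), Wif1 (0.09) and Fgf7 (0.02), did not pass. The higher count of 1 became 0 without SspA/HDM replicate 3 or untreated replicate 1 or 2, and the lower count of 2 became 1 without SspA/HDM replicate 1 and 0 without SspA/HDM replicate 2 or untreated replicate 1 or 3. Of 9 bulge and germ genes, Cdh3 rose and Krt15, Cd34 and Fgf18 fell, and Lhx2 (0.03) did not pass.

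Dividing-cell genes took another order among the treated libraries than Shh. Their mean lay 0.80, 0.46 and 0.31 above the untreated mean in SspA/HDM replicates 1, 2 and 3, and 5 of 10 rose (3 without SspA/HDM replicate 1 or untreated replicate 2, 2 without SspA/HDM replicate 2 and 8 without SspA/HDM replicate 3). Neutrophil genes lay 4.22, 3.74 and 2.43 above it in SspA/HDM replicates 1, 2 and 3, so that the library with the highest Shh, Gli1 and Ptch1 had the lowest mean of neutrophil and of dividing-cell genes within the treated group. Keratinocyte and fibroblast markers were plain in every library, with summed scaled reads of 11533 to 13679 in SspA/HDM and 13573 to 14671 in untreated libraries for 8 keratinocyte genes, of which 1 fell (2 without SspA/HDM replicate 3). For 8 fibroblast genes the sums were 15096 to 19172 in SspA/HDM and 13976 to 16544 in untreated libraries. All 6 tested melanocyte genes rose. Of these, Mlana and Slc45a2, with 20 reads each in untreated skin, passed the filter through the SspA/HDM libraries only. Of 8 sebaceous gland genes 5 fell (2 without SspA/HDM replicate 1 or untreated replicate 1 or 3, and 1 without SspA/HDM replicate 2), and of 7 adipocyte genes 4 fell (2 without SspA/HDM replicate 1). Of 7 Schwann cell genes 3 fell and 0 rose (2 to 4 lower with 1 library left out). Of 8 skeletal muscle genes 2 fell and 0 rose (0 to 2 lower with 1 library left out). The part of these shifts in cell content in the values of Shh, Ptch1 and the Gli genes was not tested.

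**Figure D4:**
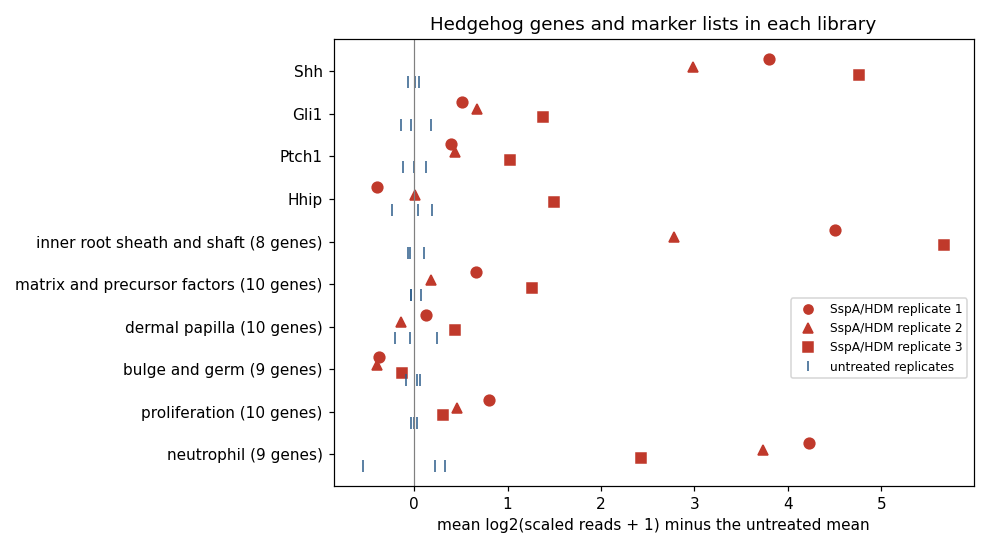
Mean log2(scaled reads + 1) minus the untreated mean (x axis) for 4 Hedgehog genes and 6 marker lists (rows), with red symbols for SspA/HDM replicates 1 to 3 and blue ticks for the untreated replicates. Replicate 3 is rightmost for Shh (4.76) and the tested genes of the inner root sheath and shaft list (5.68), and leftmost of the treated libraries for the neutrophil list (2.43).

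Part of the exons of several genes is shared with genes on the other strand in GENCODE M21. For Shh these are 446 bases with 9530036O11Rik and 361 with Gm26894, and for Gli1 265 bases with Gm47200 and 62 with Arhgap9. Hhip shares 175 bases with Gm27820 and Gli3 188 with Gm6556. The library kit keeps strand, but the strand setting of the counting is not given in the sources used here, so reads of these partners cannot be told apart from those of the 4 genes.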

How the data were processed

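Stranded libraries were made from the RNA of 6 whole-skin samples, per the labels' protocols. The submitters' processing notes name bcl2fastq 2.20.0.422, STAR, DESeq2 and build mm10. They name no read counter, and neither its settings nor any removal of duplicates is given in the sources used here. The authors deposited 1 table, whose value columns are a signal: reads per gene scaled to one total, as the values show. Beside them stand the authors' log2 fold changes with p-values and adjusted p-values. Deposited values were whole multiples of what 1 read is worth (100.0% within 0.1), so the reads of each library could be recovered.

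The main test was limma 3.58.1 (R 4.3.3) on log2(value + 1) of the deposited signal, a scale that understates changes of low genes. It used a mean-dependent prior for the spread and no term but group. Genes entered by the default filter of edgeR 4.0.16 on recovered reads (filterByExpr, minimum count 10 and total 15), and p-values were adjusted by Benjamini-Hochberg over all 15534. A gene with few reads in 1 group, such as Shh with 14 in untreated skin, entered through the other group only. The code was tested on simulated data. With 3 samples against 3, an exact two-sided permutation test of a single gene cannot go below p = 0.10, so none was run. The 8 genes and all lists were chosen with earlier results of these data known.

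Named are all 8 genes, every called pathway gene but 1 that is counted and not reported here, the 3 genes of each pathway or follicle list with the highest mean RPKM (in pathway lists, of those not called), and the 5 genes nearest in profile to Shh and to Gli1 (mean of at least 10 reads, no predicted genes). Ihh, Foxe1, Foxf1, Foxf2 and the called dermal papilla and bulge genes outside that rule were named after their values were seen. So were the inner root sheath and shaft, neutrophil and melanocyte genes named for the filter on low reads. Markers of other cells are mostly given by counts. Alternatives were edgeR's quasi-likelihood test with TMM, DESeq2 1.42.0, limma-voom, TMM scaling, pseudocounts of 0.5 and 5, other filters, a stricter threshold, a replicate block, single libraries left out, the authors' deposited comparison and, chosen after seeing the data, the 4 libraries of like depth. Figures were drawn with matplotlib 3.10.9.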

Additional observations from a re-analysis of the deposited data

How the results depend on the processing

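The log2 fold changes of Shh, Ptch1, Gli1, Gli2, Gli3 and Sufu stayed positive under every alternative run. That of Hhip turned negative without SspA/HDM replicate 3 and in the 4 libraries of like depth. A pseudocount of 5 gave 3.22 for Shh. Sufu, with a replicate SD of 0.03 on the log2 scale, was 0.37 with edgeR, limma-voom and TMM scaling and 0.36 with DESeq2 and in the authors' deposited table. With adjusted p under 0.01, 362 genes were higher and 288 lower, and 2 and 1 of the other pathway genes. Leaving out 1 library gave 610 to 1420 higher and 529 to 1344 lower genes, and 4 to 6 higher and 1 to 3 lower among the other pathway genes, each fit holding fewer samples. Among the marker lists, limma-voom called 2 of 8 inner root sheath and shaft genes, against 8 in the main test, and the cause was not tested. Of the matrix and precursor factor genes, 4 were higher in the authors' deposited comparison and 2 with the replicate block, against 1. With adjusted p under 0.01, 1 dividing-cell gene was higher, 2 adipocyte genes were lower, and 0 of the matrix, dermal papilla, keratinocyte and sebaceous gland genes were called. In the 4 libraries of like depth, 9 dividing-cell genes and 0 dermal papilla genes were higher, and 2 keratinocyte genes were lower. In these 4 libraries, 6 of the other pathway genes were lower, and the cause was not tested. With the replicate number as a block, 6 of the other pathway genes were higher and 1 was lower. Same-numbered samples shared only a number, with correlations of their deviations from the group means of -0.085, -0.055 and 0.054 for replicates 1, 2 and 3. The low reads of Shh in untreated skin, 14 in all, limit the size of its fold change.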
